A study of Homo sapiens with 3 samples.

Results

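Genes for integrins, cadherins, collagens and laminins, together with mesenchymal markers and factors, were described in MIAPaCa-2 cells, a human pancreatic cancer line whose labels call it epithelial. Members were chosen by gene symbol, with earlier results of these data known. The rule took every row named for an integrin alpha or beta chain, a numbered cadherin, a collagen chain or a laminin chain, or named FN1, VIM, ZEB1, ZEB2, SNAI1 or SNAI2. This gave 51 of the 14949 genes in the table: 7 integrin alpha, 7 integrin beta, 5 cadherin, 20 collagen and 8 laminin genes, and 4 mesenchymal genes. The annotation holds 111 genes that match the same names, and the other genes, among them CDH1, CDH2, FN1 and ZEB2, had no row and were not analysed here.

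The 3 libraries came from cells with a control short hairpin and no treatment (sh-CTL), from untreated cells with a short hairpin against METTL3 (sh-METTL3), and from control hairpin cells kept for 24 h with NMS-P937, which inhibits PLK1, at 80 nM (sh-CTL + PLK1i). METTL3 is the catalytic subunit of the enzyme that methylates adenosine in messenger RNA, and PLK1 is a kinase of mitosis. The knockdown is represented by 1 hairpin line, and the labels name no vehicle for the untreated cells. Each group held 1 library, so no difference has a replicate check and no p-value was computed.

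The libraries held 37449317, 46944898 and 47727534 reads in listed genes in sh-CTL, sh-METTL3 and sh-CTL + PLK1i, the order in which 3 values of a gene are given throughout. Reads of a gene are given as counted, so that the smaller sh-CTL library has fewer reads at an equal level, and changes are given after scaling. METTL3 itself had 3378, 1781 and 4223 reads, and the knockdown library kept 41.9% of the normalized count of the control. The keratins of simple epithelium were abundant, with 82612, 124197 and 97483 reads of KRT8 and 43957, 66905 and 52213 of KRT18, whereas the epithelial markers CDH1, EPCAM and KRT7 had no row. Of the 8 fibroblast markers, DCN, LUM, PDGFRB and THY1 had no row, while COL1A1, COL1A2, COL3A1 and ACTA2 had one. COL1A2 was abundant, with 44100, 44201 and 44493 reads, and COL3A1 had 527, 46 and 411. Of the leukocyte markers, CD68 and ITGB2 had a row and PTPRC had none. None of the listed endothelial or acinar markers had a row.

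Integrins are receptors made of an alpha and a beta chain that tie the cell to the matrix outside it. Collagens and laminins are matrix proteins, the collagens being built as triple helices and the laminins as trimers of alpha, beta and gamma chains in the basement membrane. Cadherins join neighbouring cells to each other. In the epithelial-mesenchymal transition, factors such as SNAI1, SNAI2 and ZEB1 lower epithelial cadherin, and the intermediate filament protein vimentin (VIM) and fibrillar collagens become abundant.

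The sequence before the start is shown for 4 members that differed at least 2-fold in sh-METTL3 and had an entry among the reference promoters. COL3A1, ITGB3 and ITGB4, which also differed at least 2-fold, had no entry there. COL6A3 (chr2:237414165-237414414), LAMB1 (chr7:108003162-108003411) and LAMB3 (chr1:209652426-209652675) were lower in sh-METTL3 and ITGA10 (chr1:145910051-145910300) was higher. Each window is the 250 bases before the RefSeq start in GRCh38.p14, written 5′ to 3′ along the gene, and all of them lie on the minus strand of that build. Capitals mark matches, on either strand, to CACCTG, the core bound by SNAI and ZEB factors and called E-box here. They also mark matches on either strand to TGANTCA, called AP-1, to GGGCGG, called SP1, and to TATAAA, called TATA.
COL6A3: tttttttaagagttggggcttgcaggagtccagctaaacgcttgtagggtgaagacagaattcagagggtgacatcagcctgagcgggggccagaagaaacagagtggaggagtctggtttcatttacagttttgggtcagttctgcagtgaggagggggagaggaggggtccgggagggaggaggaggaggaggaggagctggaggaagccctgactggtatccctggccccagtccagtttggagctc
LAMB1: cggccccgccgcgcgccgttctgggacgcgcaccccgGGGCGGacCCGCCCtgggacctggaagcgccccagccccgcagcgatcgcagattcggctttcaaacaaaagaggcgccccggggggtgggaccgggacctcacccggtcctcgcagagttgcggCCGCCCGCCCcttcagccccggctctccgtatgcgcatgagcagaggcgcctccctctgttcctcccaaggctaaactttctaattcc
LAMB3: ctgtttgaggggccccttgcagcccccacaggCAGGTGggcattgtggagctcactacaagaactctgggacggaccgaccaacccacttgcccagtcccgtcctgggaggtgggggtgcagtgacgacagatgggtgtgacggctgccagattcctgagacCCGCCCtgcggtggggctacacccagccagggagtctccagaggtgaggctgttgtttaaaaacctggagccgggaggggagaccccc
ITGA10: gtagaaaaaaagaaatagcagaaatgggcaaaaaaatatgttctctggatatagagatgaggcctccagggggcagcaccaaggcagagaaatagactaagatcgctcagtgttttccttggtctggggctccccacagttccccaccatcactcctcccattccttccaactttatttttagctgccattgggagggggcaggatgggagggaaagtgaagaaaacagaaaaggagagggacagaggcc

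The LAMB3 window held CAGGTG at position -218 and CCGCCC at position -88, counted from the start. The LAMB1 window held 4 SP1 matches, of which the last 2 overlap, and no letters of the other motifs. No match to any of the 4 motifs was in the COL6A3 or ITGA10 window. Among the 37 members with an entry in the promoter table, an E-box was in 7 (18.9%) and an SP1 match in 23 (62.2%). Over windows of the same length for 27305 genes, the shares were 17.5% and 42.3%. TATA letters were in 5 of the 37 (13.5%, against 11.1% of all) and AP-1 letters in 1 of them, against 6.60% of all. These matches describe the letters of the windows and are not evidence of binding.

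Levels per transcript length, given as RPKM (reads scaled to library depth and to kilobases of transcript), were led by few genes in each family. VIM stood at 2602 in sh-CTL, and the next were ITGB1, the beta chain shared by most matrix receptors, at 324, and COL1A2, a chain of collagen I, at 232. ITGA3, the alpha chain of a laminin receptor with ITGB1, stood at 120.0 and COL5A2, a chain of collagen V, at 115. ITGA3 made up 79.1% of the summed integrin alpha level per length in sh-CTL, ITGB1 93.8% of the beta level and COL1A2 49.4% of the collagen level. Laminin was led by the gamma chain gene LAMC1 with 58.4% of its family. The cadherin rows were low beside these, since CDH24, a type II cadherin, held 91.1% of the family at a level of 5.68.

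The leading chain was the same gene in all 3 libraries for every family. All members together took 1.08%, 0.884% and 1.04% of the reads of the libraries, and VIM alone gave 209893, 199813 and 267673 of their 403919, 415043 and 496711 reads. Across members the reads ran from 10 for CDH26 to 209893 for VIM in sh-CTL. In bulk RNA, fewer cells of a type and less RNA per cell cannot be told apart.

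**Figure D1:**
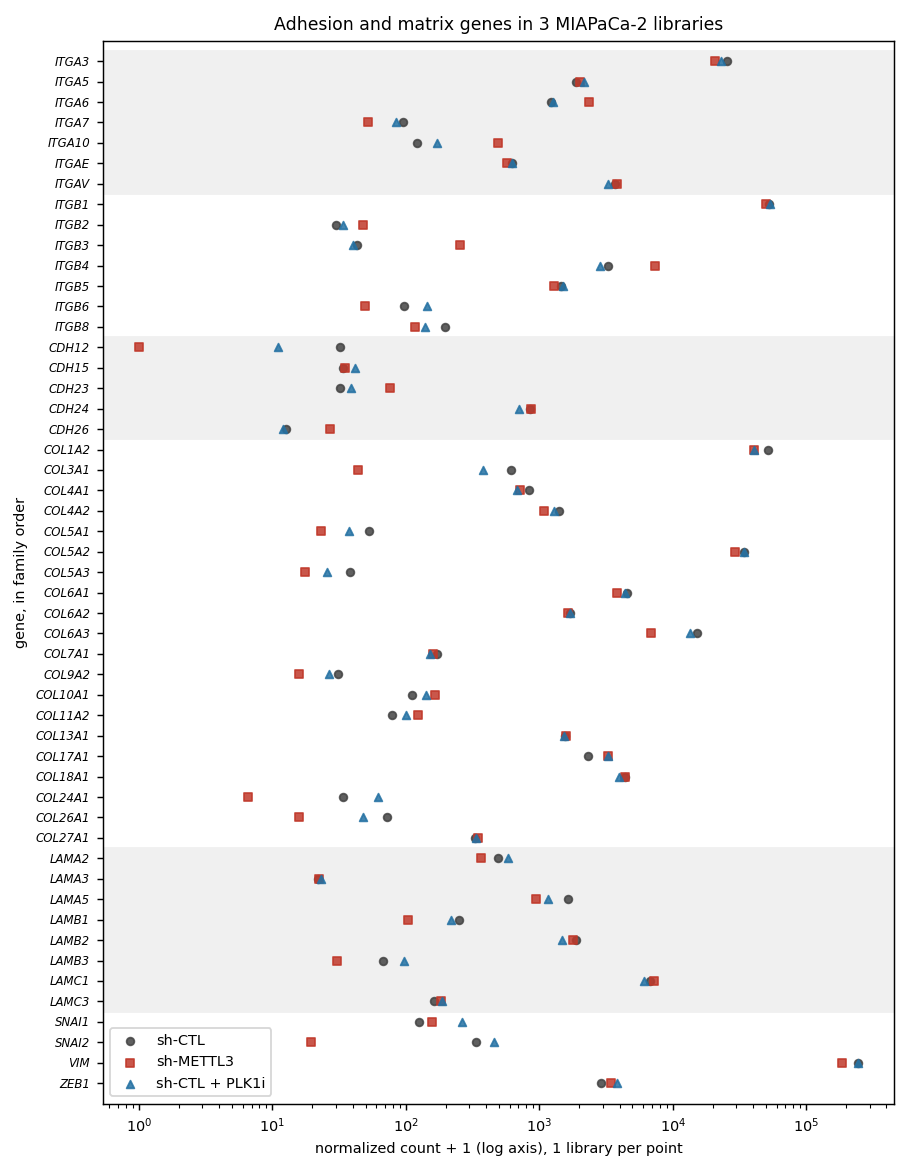
Normalized count plus 1 (horizontal log axis) of the 51 genes in sh-CTL (grey circles), sh-METTL3 (red squares) and sh-CTL + PLK1i (blue triangles), 1 library per point, with shading by family. The red squares of COL3A1 and SNAI2 lie far left of the other 2 libraries and those of ITGB3 and ITGA10 lie to the right, while ITGB1 and COL5A2 lie close together.

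The first comparison asked how adhesion and matrix genes stood in the METTL3 knockdown line. In sh-METTL3 against sh-CTL, 5 members were at least 2-fold higher, beside 3.42% of all listed genes, and 10 were at least 2-fold lower, beside 2.94% of all. As shares of the 51 members these were 9.80% and 19.6%. Changes are differences of log2(normalized count + 1), and the 95% intervals (exact, Clopper-Pearson) are those of a ratio between the reads of 2 libraries. They cover counting error only and compare libraries, not conditions. The median change of the members was -0.10, beside 0.00 over all genes. The interval lay above 0 for 13 members, below 0 for 25 and spanned 0 for 13.

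Genes with few reads pass 2-fold more often, so the members were also read by level. At mean normalized counts from 1000 upward, 2 of 21 members (9.52%) were past 2-fold in either direction, beside 1.01% of all genes at that level. Between 200 and 1000 they were 3 of 8 (37.5%, beside 4.46%), and between 50 and 200 they were 3 of 11 (27.3%, beside 11.5%). Below 50 they were 7 of 11 (63.6%, beside 23.4%).

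**Figure D2:**
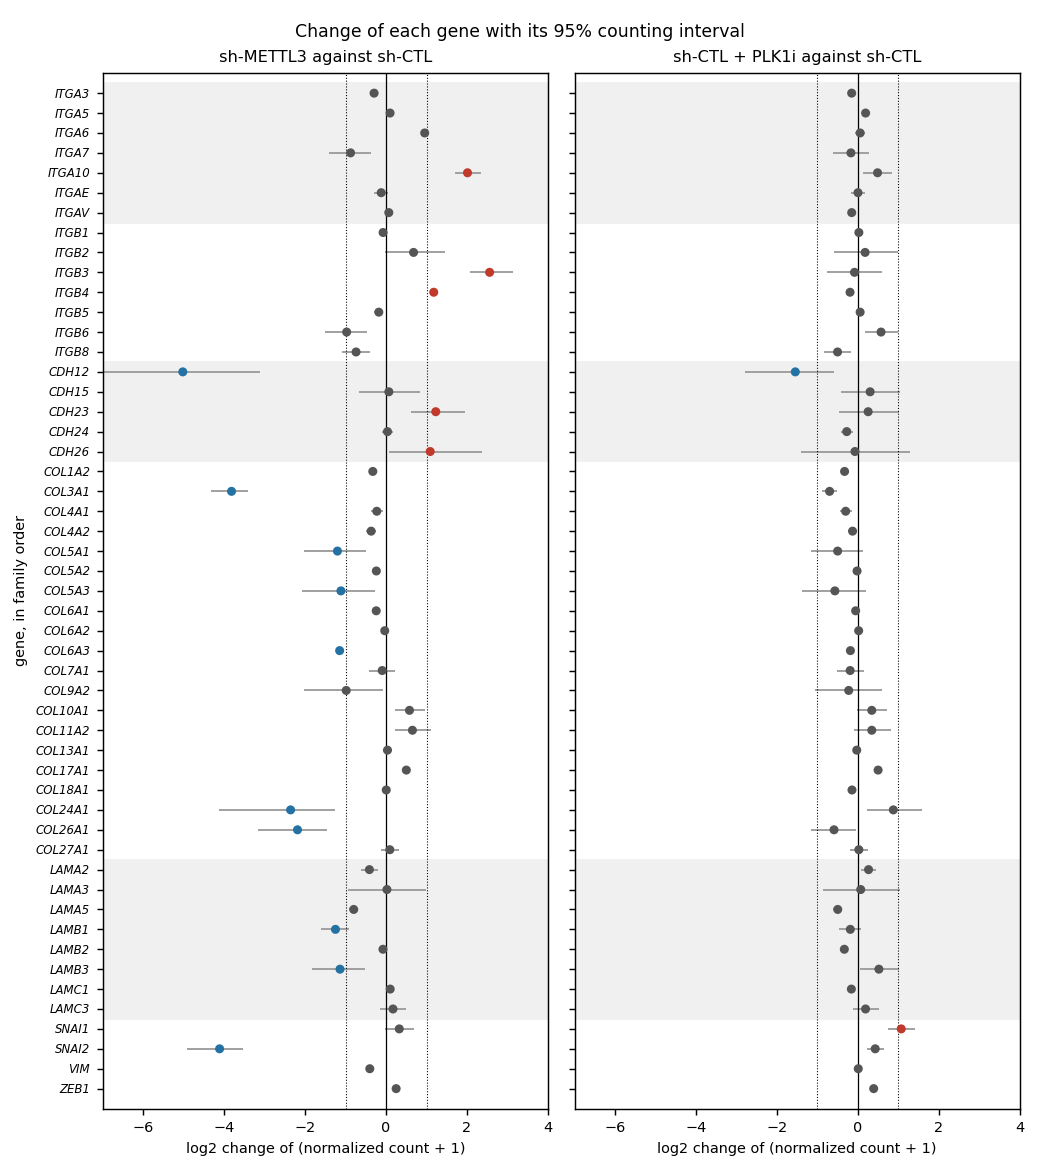
Change of each of the 51 genes as log2 of (normalized count + 1) (horizontal axis) in sh-METTL3 (left) and sh-CTL + PLK1i (right) against the same sh-CTL library, with 95% counting intervals as lines, dotted lines at 2-fold, and red or blue points for genes at least 2-fold higher or lower. The left panel has 5 red and 10 blue points, and the right panel has 1 of each. The interval of CDH12 in sh-METTL3 runs off the axis because that library had no read.

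The integrins, 7 alpha and 7 beta chain genes, held 3 of the 5 genes that were at least 2-fold higher (beside 3.42% of all genes). They held none of the 10 that were lower (beside 2.94%). ITGB3, the beta chain of a vitronectin receptor (ENSG00000259207, GRCh37 chr17:45331193-45391109), had 36 reads in the control library, 272 in the knockdown and 43 after treatment. Only the sh-METTL3 library was high for it, 6.01-fold above sh-CTL in normalized count, a log2 change of 2.56 (interval 2.08 to 3.13). Its level per length remained low, at 0.975 in sh-METTL3 against 12.6 for its usual alpha partner ITGAV, which differed by 0.07.

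ITGA10, the alpha chain of a collagen receptor with ITGB1 (ENSG00000143127, GRCh37 chr1:145524969-145543868), had 104 reads in the control library, 531 in the knockdown and 185 after treatment. The sh-METTL3 library was 4.06-fold above sh-CTL, a log2 change of 2.01 (1.72 to 2.34), and the treated library lay between them. The other alpha chains of collagen receptors, ITGA1, ITGA2 and ITGA11, had no row.

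ITGB4 encodes the beta chain that pairs with ITGA6 in the laminin receptor of hemidesmosomes (ENSG00000132470, GRCh37 chr17:73717408-73753899). It had 2800 reads in the control library, 7969 in the knockdown and 3102 after treatment, which made sh-METTL3 the high library by 2.26-fold over sh-CTL, or 1.18 on the log2 scale (1.12 to 1.24). ITGA6 differed to nearly the same extent, with 1053, 2568 and 1387 reads and a log2 change of 0.95 (0.85 to 1.06), just short of 2-fold. Per transcript length, ITGB4 went from 12.7 in sh-CTL to 28.8 in sh-METTL3 and ITGA6 from 4.83 to 9.41, so this receptor was the one fixed integrin complex in which both chains were at least 1.9-fold apart. ITGB4 overlaps GALK1 on the other strand, and whether the counting used strand is not given in the sources used here.

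The abundant integrin chains differed little. ITGB1 had 45340, 54204 and 58422 reads, and its change in sh-METTL3 was -0.07 (-0.09 to -0.06). ITGA3, with 21968, 22506 and 25020 reads, was at -0.30 (-0.32 to -0.27). The fibronectin receptor chain ITGA5 was at 0.10, and ITGB5 was at -0.18. Among low chains, ITGB6 had 82, 52 and 155 reads and a change of -0.97, and ITGB8 had 168, 126 and 150 reads and a change of -0.74. ITGB6 and ITGB8 can pair with ITGAV, as can ITGB3, ITGB1 and ITGB5. ITGB8 was also below sh-CTL after treatment, at -0.50 (-0.83 to -0.18). The neighbours of ITGB8 had a median of -0.27 in sh-METTL3. ITGB2, the beta chain of leukocyte integrins, had 25, 51 and 36 reads and an interval that spanned 0 (-0.02 to 1.45), and the leukocyte marker PTPRC had no row. The other gene of that marker list, CD68, a lysosomal membrane protein, had 1505, 3499 and 2875 reads and was at 0.89 (0.80 to 0.97) in the knockdown and 0.59 (0.50 to 0.68) after treatment. The part of other cells in the integrin values was not tested. ITGA7, an alpha chain of laminin receptors, was at -0.88 with 81, 55 and 91 reads.

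**Figure D3:**
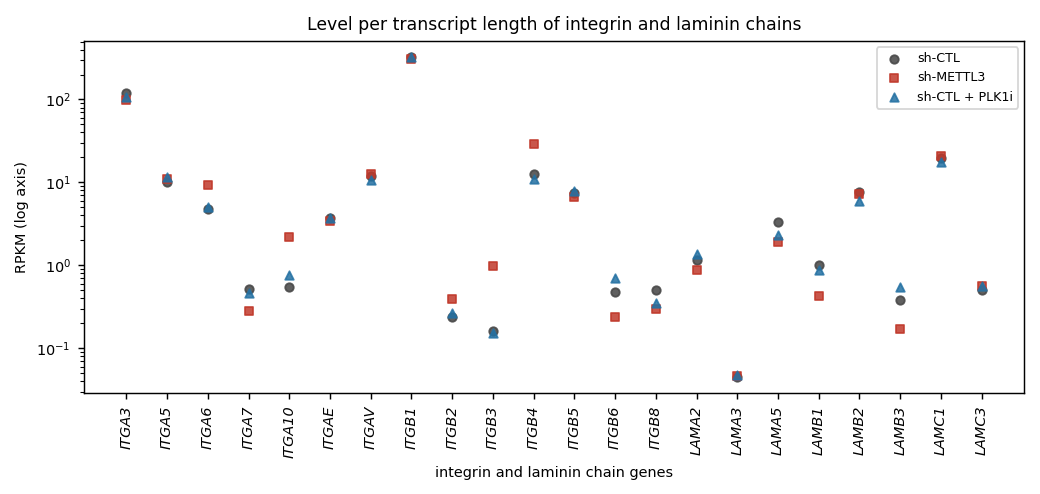
RPKM, reads scaled to library depth and to kilobases of transcript (vertical log axis), for the 22 integrin and laminin chain genes in the 3 libraries, 1 library per point. ITGB4 and ITGA6 are highest in sh-METTL3 (red squares, at 28.8 and 9.41), ITGB3 and ITGA10 are higher there but at a low level, and LAMB1 and LAMB3 are lowest there.

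The collagens, 20 of the 51 members, held 6 of the 10 genes that were at least 2-fold lower in sh-METTL3 (beside 2.94% of all genes). They held none that were higher (beside 3.42%), and the family median was -0.24. Of the 6 lower collagens, only COL3A1 and COL6A3 had a mean normalized count of at least 50. COL3A1, the chain of collagen III, a fibrillar collagen of soft connective tissue (ENSG00000168542, GRCh37 chr2:189839099-189877472), had 527 reads in the control library, 46 in the knockdown and 411 after treatment. The sh-METTL3 library was 14.4-fold below sh-CTL, a log2 change of -3.82 (-4.32 to -3.41), and stood apart from both other libraries. The list of fibroblast markers, of which 4 of 8 had a row, holds COL3A1, COL1A1 and COL1A2 themselves and ACTA2, with 72, 106 and 77 reads. Its summed normalized count was 52163, 41116 and 41443 in the libraries, of which COL1A2 alone gave 51425, 40969 and 40961. The sum is thus nearly the value of 1 member, and the part of other cells in the result was not tested. COL6A3, a chain of the beaded filaments of collagen VI (ENSG00000163359, GRCh37 chr2:238232646-238322971), was far more abundant, with 13096, 7440 and 14601 reads. It was 2.21-fold below sh-CTL, a change of -1.15 (-1.19 to -1.11).

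The partner chains of COL6A3 did not share its size of change. COL6A1 had 3902, 4146 and 4759 reads and a change of -0.24 (-0.31 to -0.18), and COL6A2 had 1449, 1782 and 1861 reads and a change of -0.03 (-0.13 to 0.07). Per transcript length COL6A3 stood at 33.2 in sh-CTL and 15.0 in sh-METTL3, above COL6A1 (24.8) in the first and below it (21.0) in the second.

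In collagen VI the chain with the highest level differed most, whereas in collagen V and collagen I it was the scarce chain. COL5A2 had 29527, 31447 and 36888 reads and a change of -0.24, while COL5A1 had 45, 24 and 40 reads and a change of -1.20 (-2.02 to -0.49). COL1A2 had 44100, 44201 and 44493 reads and changes of -0.33 in both comparisons. The row of COL1A1, whose symbol cell also holds its identifier so that the naming rule does not reach it, had 34, 6 and 36 reads and a change of -2.63 (-4.38 to -1.56).

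Of the 9 fibrillar collagen genes in the list with a row, COL1A1 included, 5 were at least 2-fold lower in sh-METTL3, beside 2.94% of all genes. The median was -1.12, while the abundant chains COL1A2 and COL5A2 were at -0.33 and -0.24. Beside COL3A1, COL1A1 and COL5A1 the lower genes were COL5A3 (32, 18 and 27 reads) and COL24A1 (28, 6 and 66 reads), both named here after their values were seen. All of the lower genes but COL3A1 were scarce, with mean normalized counts below 50. At that level 23.4% of all genes were past 2-fold in either direction. COL11A2, in the same class, went the other way, at 0.65 with 67, 133 and 108 reads. The 3 basement membrane and network collagens ranged from -0.37 for COL4A2 to 0.58 for COL10A1, and none reached 2-fold. COL26A1, also chosen after its values were seen, had 61, 16 and 51 reads and a change of -2.19 (-3.16 to -1.45). COL17A1, a transmembrane collagen of hemidesmosomes, had 2001, 3561 and 3584 reads and was at 0.50 in the knockdown and at 0.50 after treatment.

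Among the laminins, 2 of 8 genes were at least 2-fold lower in sh-METTL3 (beside 2.94% of all genes), both of them beta chains. None was higher (beside 3.42%). LAMB1 (ENSG00000091136, GRCh37 chr7:107564244-107643658) had 213, 112 and 237 reads and was 2.39-fold lower in sh-METTL3 than in sh-CTL, at -1.25 (-1.60 to -0.92). LAMB3, the beta chain of the laminin that hemidesmosomes bind (ENSG00000196878, GRCh37 chr1:209788215-209825770), had 57, 32 and 104 reads and was 2.24-fold lower, at -1.14 (-1.84 to -0.51). For both genes sh-METTL3 was the low library, while after treatment LAMB3 was above sh-CTL and LAMB1 slightly below it once depth was taken into account. The most abundant chain, LAMC1, had 5813, 7847 and 6588 reads and a change of 0.10 (0.05 to 0.15).

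LAMA5, an alpha chain that joins LAMC1 and either LAMB1 or LAMB2 in laminins of the adult basement membrane, had 1410, 1019 and 1265 reads and a change of -0.80 (-0.92 to -0.68). LAMB2 had 1615, 1927 and 1622 reads and a change of -0.08. Of the 3 chains of the LAMA5, LAMB1 and LAMC1 trimer, 2 were thus lower in sh-METTL3 and the third was not. LAMB1 overlaps DLD and LAMA5 overlaps ADRM1 on the other strand.

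The 5 cadherin rows were mostly scarce. CDH24 had 727, 937 and 761 reads and a change of 0.03 in sh-METTL3. CDH12, a type II cadherin, had 27 reads in the control library, none in the knockdown and 11 after treatment. Set against a floor of 3 reads in the sh-METTL3 library, the sh-CTL value was 11.3-fold higher. That figure leaves out the counting error of the 27 reads, and the interval of the log2 change reached up to -3.10. CDH23 (27, 81 and 41 reads, 1.23) and CDH26 (10, 28 and 12 reads, 1.09), both atypical cadherins, were the members of this family past 2-fold in the higher direction. Both were named after their values were seen, and CDH15 had 28, 37 and 44 reads. CDH26 had a row only through sh-METTL3 and CDH12 only through sh-CTL, so their calls partly follow from having a row.

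The mesenchymal genes did not move in one direction. Of the 5 epithelial markers with a row, KRT8, KRT18 and KRT19 were at 0.26, 0.27 and 0.43 in sh-METTL3, with intervals above 0, while CLDN4 was at -0.35 (-0.52 to -0.19) and ESRP1 had 26, 3 and 15 reads. The summed normalized count of these markers was 152269, 182998 and 142598, and its part in the values of the mesenchymal and collagen genes was not tested. SNAI2, the repressor also called Slug (ENSG00000019549), had 289 reads in the control library, 20 in the knockdown and 493 after treatment. The knockdown library was 18.2-fold below sh-CTL, a change of -4.11 (-4.92 to -3.53), and the treated library was the highest. SNAI1, the related repressor Snail (ENSG00000124216, GRCh37 chr20:48599517-48605423), had 107, 169 and 286 reads and a change of 0.33 (-0.03 to 0.69) in sh-METTL3. ZEB1 had 2510, 3752 and 4169 reads and a change of 0.25 (0.18 to 0.32).

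VIM had 209893, 199813 and 267673 reads and a change of -0.40 (-0.41 to -0.39) in sh-METTL3. The 24 neighbouring genes on chromosome 10 had a median change of -0.42, and VIM minus that median was 0.02. For the other named genes the neighbours moved less: the median change of the neighbours was 0.00 for SNAI2, 0.10 for COL3A1, 0.10 for COL6A3, -0.02 for ITGB3, 0.14 for ITGA10, -0.11 for ITGB4 and -0.01 for ITGA6. LAMB1 lies on chromosome 7, where the median of 632 genes was -0.25, and its own neighbours had a median of -0.21. All 4 members on that chromosome, COL1A2, COL26A1, ITGB8 and LAMB1, were below 0. For VIM and these chromosome 7 genes the neighbours or the chromosome lay below 0 with the gene, and their part in the values was not tested.

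**Figure D4:**
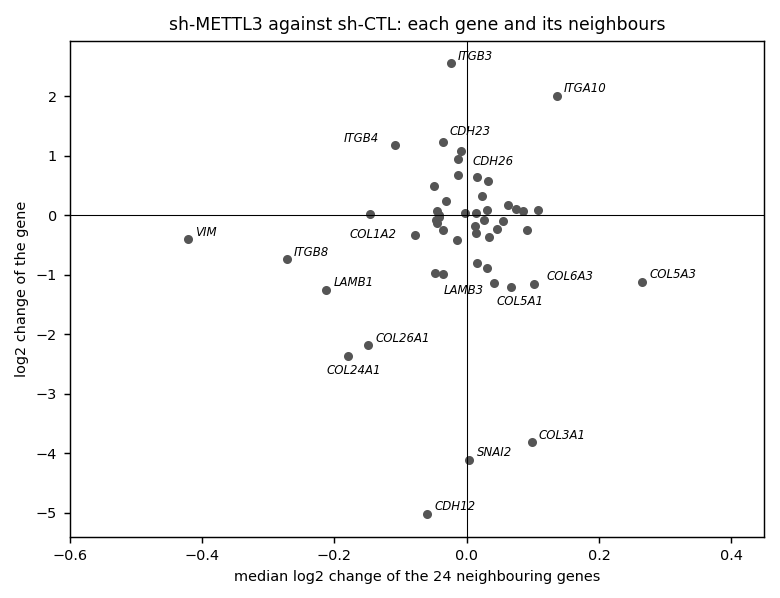
Change of each of the 51 genes in sh-METTL3 against sh-CTL (vertical axis, log2 of normalized count + 1) against the median change of its 24 neighbouring genes whose mean normalized count reached 50 (horizontal axis). VIM sits far left with neighbours at -0.42 and its own value at -0.40, whereas SNAI2, COL3A1 and ITGB3 lie near 0 on the horizontal axis and far from 0 on the vertical one.

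The second comparison asked how the same genes stood after PLK1 inhibition in sh-CTL cells. It shares the sh-CTL library with the first, so the values are set side by side and no overlap between them was used. In sh-CTL + PLK1i against sh-CTL, 1 member was at least 2-fold higher, beside 1.39% of all genes, and 1 was at least 2-fold lower, beside 1.13% of all. The median change of members was -0.03, beside 0.00 over all genes. The interval lay above 0 for 12 members, below 0 for 16 and spanned 0 for 23.

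The gene that was higher was SNAI1, at 1.07 (0.75 to 1.41), with 286 reads after treatment against 107 in sh-CTL, and that interval reaches below 2-fold. The gene that was lower was CDH12, at -1.55 (-2.80 to -0.58), with 11 reads against 27, and it had a row only through sh-CTL. All 4 mesenchymal genes were above 0, SNAI2 at 0.43 (0.22 to 0.64), ZEB1 at 0.39 (0.32 to 0.46) and VIM at 0.01 (0.00 to 0.02). VIM's difference was past counting error only because of its depth, and upper-quartile scaling turned it to -0.01.

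The genes that stood out in sh-METTL3 were near sh-CTL after treatment or moved less. ITGB3 was at -0.08 (-0.76 to 0.60), ITGB4 at -0.19 (-0.27 to -0.12), ITGA6 at 0.06 (-0.06 to 0.17) and ITGA10 at 0.49 (0.14 to 0.85). COL3A1 was at -0.70 (-0.89 to -0.51), the lowest value of any collagen member in this comparison, and COL6A3 was at -0.18 (-0.22 to -0.15). LAMA5 was at -0.50 and LAMB2 at -0.33, while LAMB3 was at 0.52 and LAMB1 at -0.19. ITGB6 was at 0.57 and COL24A1 at 0.88, the opposite sides of sh-CTL from their values in sh-METTL3.

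A direct comparison of sh-METTL3 with sh-CTL + PLK1i does not use the control. Here 4 members were at least 2-fold higher in sh-METTL3 (beside 3.87% of all genes) and 8 were at least 2-fold lower (beside 3.59%). It shares the sh-METTL3 library with the first comparison, so part of any overlap between these comparisons is built in, and no conclusion is drawn from it. The 4 higher genes, CDH26, ITGA10, ITGB3 and ITGB4, were also 2-fold above sh-CTL. Of all listed genes, 579 were higher here, and 319 of these (2.13% of all) were 2-fold above both other libraries. Likewise 537 listed genes were lower, and 325 of these (2.17% of all) were 2-fold below both other libraries. Of the 8 lower members, CDH12, COL24A1, COL26A1, COL3A1, LAMB1, LAMB3 and SNAI2 were 2-fold below both. The eighth was ITGB6, at -1.55, with 52 reads in sh-METTL3 and 155 after treatment. The median of the members was -0.12.

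Partner genes of the same pathways were read from lists chosen with earlier results of these data known, and their counts stand beside the same shares of all genes past 2-fold, 3.42% higher and 2.94% lower in sh-METTL3 and 1.39% and 1.13% after PLK1 inhibition. None of the 27 adhesion adaptors with a row, such as the linkers between integrins and actin, and none of the 6 catenins, which tie cadherins to actin, was past 2-fold in either comparison with sh-CTL. For lists of this length, counts of 0 are near those shares. The median of the adaptors was 0.14 in the knockdown and 0.02 after treatment. Of 12 other matrix receptors, SDC4, a syndecan that acts with integrins at focal adhesions, was higher in sh-METTL3 at 1.63, with 1964, 7635 and 3231 reads.

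Among 15 epithelial junction genes with a row, the desmosomal cadherins DSG2 and DSC2 were past 2-fold higher in sh-METTL3. DSG2 had 291, 1846 and 396 reads and a change of 2.33, and DSC2 had 14, 165 and 17 reads and a change of 3.15. DSC2 had a row only through sh-METTL3, the library where it was high, so its call partly follows from having a row. The splicing factor ESRP1, with 26, 3 and 15 reads and named after its values were seen, was the gene of that list past 2-fold lower. It was so in sh-METTL3 and after PLK1 inhibition. ESRP1 had a row only through sh-CTL, which both comparisons use, so being lower in each partly follows from having a row. The list's median was -0.20 in sh-METTL3, so most of its genes did not share the direction of the desmosomal cadherins.

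Of 22 collagen enzymes with a row, 2 (beside 2.94% of all genes) were past 2-fold lower in sh-METTL3 and none (beside 3.42%) was higher. ADAMTS14, a procollagen protease, was at -1.42 and the collagen hydroxylase P3H3, with 3064, 1924 and 3607 reads, was barely past 2-fold lower. Of 4 basement membrane partners with a row, 1 was past 2-fold higher in sh-METTL3, and the list median was -0.41. That gene, FRAS1, had 11, 60 and 3 reads and a row only through sh-METTL3, so its call partly follows from having a row. The others, AGRN, HSPG2 and FBLN1, were at -0.94, -0.51 and -0.30 with intervals below 0, and AGRN, the matrix proteoglycan agrin, had 5633, 3695 and 5873 reads. These genes were named after their values were seen. Of 6 other factors of the epithelial-mesenchymal transition with a row, TGFBR2, a receptor for transforming growth factor beta, was past 2-fold lower in sh-METTL3 with 479, 3 and 587 reads, and none was higher.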

How the data were processed

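RNA from 3 libraries, 1 per group, was sequenced after stranded library preparation with polyadenylated RNA selection. The authors deposited 1 table of log2 values for 14949 genes. The submitters' processing notes name FastQC 0.11.9, STAR 2.7.10, RSEM 1.3.3 and hg19, without their roles, and the scaling is not given in the sources used here. The deposited log2 values were those of scaled reads to which 4 had been added. Undoing this gave whole reads, with 1 read worth 1.17, 0.927 and 0.921 in sh-CTL, sh-METTL3 and sh-CTL + PLK1i, and 100% of values below 2000 reads within 0.1 of a whole number. The highest library of every row reached 0.503 CPM or more.

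Changes were computed as differences of log2(normalized count + 1), which understates those of genes with few reads. Folds and intervals are of normalized counts without the added 1. A member was called past 2-fold, a log2 change of 1 in either direction. Exact Clopper-Pearson intervals at 95% and a floor of 3 reads cover counting error only, since amplified reads are not independent molecules. Gene positions and canonical transcript lengths came from GENCODE 44 on GRCh37, which matched 14858 identifiers, and windows from RefSeq on GRCh38.p14. The abbreviations in the column names gave each column its sample. Scripts (Python 3.11.15, SciPy 1.17.1) were tested on simulated data.

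Members and lists were chosen with earlier results of these data known. Named genes were those past 2-fold whose mean normalized count reached 50 in either comparison with sh-CTL, the 3 highest per length in each family, the fixed mesenchymal genes and chains of the fixed complexes. Members outside these rules are marked where they occur, except COL10A1, COL11A2, COL17A1, ITGA7 and ITGB2, which also lay outside them. Other pseudocounts, scalings, minimum counts, thresholds and subtraction of neighbours or of the chromosome median were tried as alternatives.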

Additional observations from a re-analysis of the deposited data

How the results depend on the processing

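With 1 library per group, no spread between samples is known, and genes near 2-fold or with under 50 normalized counts are the least certain. No paired analysis was possible because each group held 1 library. The counts that moved by more than 1.5 times are given here. In sh-METTL3 against sh-CTL, the 5 higher and 10 lower members became 3 and 5 with a mean of at least 50, 2 and 3 with a mean of at least 200, 2 and 5 at 4-fold, and 3 and 6 where the interval lay wholly past 2-fold, and 8 were higher at 1.5-fold. In sh-CTL + PLK1i against sh-CTL, the 1 higher and 1 lower member became 2 and 3 at 1.5-fold, 0 and 0 at 4-fold, with a mean of at least 200 and where the interval lay wholly past 2-fold, and 0 were lower with a mean of at least 50. In sh-METTL3 against sh-CTL + PLK1i, the 4 higher and 8 lower members became 2 and 2 with a mean of at least 200 and 1 and 4 at 4-fold, with 5 lower with a mean of at least 50 and 14 lower at 1.5-fold. The smaller counts under a minimum mean follow from fewer members entering, 40 at 50 and 29 at 200. Pseudocounts of 4 and 10, both other scalings and counting COL1A1, an alternative chosen after seeing the data, moved no count by more than 1.5 times, and the medians moved by under 0.1 in every alternative. Of 240 values of single named genes, 18 left their counting interval, 12 of them on subtracting the neighbours, and no called value changed sign. After subtraction of the neighbours' median, VIM in sh-METTL3 was at 0.02, ITGAV at -0.02 and the called genes COL6A3 and ITGB4 at -1.25 and 1.29.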
